A study of Mus musculus with 18 samples.

Results

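C-type lectin receptors are surface proteins that let myeloid cells bind sugars, glycolipids and signals from damaged cells. 10 genes of this kind were followed here in mouse bone marrow-derived macrophages (BMDMs): Clec4e, Clec4d, Clec4n, Clec5a, Clec7a, Clec12a, Clec4a2, Clec4a1, Clec4a3 and Clec2d. They were chosen by name from a count table of 21734 protein-coding genes, and each name matched 1 row. All 10 had enough counts to be tested, as did 11357 genes in all.

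The study compared 3 genotypes at the miR-146a locus, on a mixed 129 and B6 background. Wild-type (WT) mice carry the normal microRNA, KO mice lack it, and 3′F mice make a microRNA with the normal seed whose 3′ part is exchanged with the other strand of the hairpin. Both changes are carried in the germline, so the marrow precursors lacked the normal microRNA too. KO and 3′F were kept as separate lines, backcrossed 3 times, and WT mice came from the breedings of both. Marrow came from 3 mice of each genotype, 6 to 7 months old by the sample labels, and was grown for 8 to 9 days with 10 ng/ml M-CSF. Cultures of each genotype then received fresh medium alone (resting) or with 1 ng/ml lipopolysaccharide (LPS), the bacterial ligand of TLR4, for 16 h. This gave 6 groups of 3 libraries of rRNA-depleted total RNA.

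The receptors fall into classes by how they signal. Clec4e (Mincle), Clec4d (MCL) and Clec4n (Dectin-2) lack a signalling tail and couple to the FcRγ chain encoded by Fcer1g, Clec5a (MDL-1) couples to DAP12 encoded by Tyrobp, and Clec7a (Dectin-1) carries its own activating motif. These receptors act through the kinase Syk and, for most of them, the adaptor Card9 with Bcl10 and Malt1. Clec12a (MICL) and Clec4a2 (DCIR) carry an inhibitory motif that recruits the phosphatases encoded by Ptpn6 and Ptpn11. MiR-146a is known as a brake on TLR4 signalling that NF-κB itself switches on.

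The microRNA and its close relative are printed first because the genotypes differ in the first of them. The capitals mark the seed, bases 2 to 8, which the 2 share. MiR-146a-5p lies on the minus strand of chromosome 11 (43374435 to 43374456) and miR-146b-5p on the plus strand of chromosome 19 (46342790 to 46342811), both from RefSeq on GRCm38.p6.
miR-146a-5p: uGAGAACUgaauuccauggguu
miR-146b-5p: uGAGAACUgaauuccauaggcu

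The longest annotated 3′ UTR of each receptor was searched for the complement of the seed. Clec12a was the one receptor with a 7mer match (AGTTCTC), in the 3′ UTR on the plus strand of chromosome 6 (129364251 to 129364277). Clec4e, Clec5a, Clec7a and Clec4a2 held the 6mer GTTCTC and no longer match, and the other 5 receptors held none. Among 11261 tested genes with a 3′ UTR, 33.5% held a 6mer or longer match and 20.7% a 7mer or 8mer. The sites of Clec12a and Clec4e are shown as examples of the longest match and of a 6mer in the most abundant receptor with LPS, with the match in capitals. Clec4e held 2 6mers, and the one shown lies on the minus strand of chromosome 6 (123283087 to 123283112).
Clec12a site: attcccagttAGTTCTCtatcttgtgc
Clec4e site: tcacttctgtGTTCTCcaacagtgag

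All 10 genes lie on mouse chromosome 6 (mm10). 6 of them, Clec4a1, Clec4a3, Clec4a2, Clec4n, Clec4d and Clec4e in that order, fill 368.0 kb (122921848 to 123289870) in which the table lists 9 genes. Clec2d, Clec12a and Clec7a lie within 292.2 kb (129180615 to 129472779), and Clec5a lies alone, 82340 kb from its nearest fellow (40574894 to 40585821). Clec4e, Clec7a and Clec5a are read from the minus strand. The other 3 Clec4 genes of the first stretch, Clec4a4, Clec4b1 and Clec4b2, were nearly silent, with group means of at most 2.70 CPM (counts scaled to a common library size). Of the 50-base stretches of Clec4a2, 6.69% also occur in other genes, Clec4b1 and Clec4a4 among them, and 1.98% of those of Clec2d occur in Clec2g or Clec2i. Reads that fit more than 1 place there may have gone uncounted, since the authors kept reads of high mapping quality.

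Total counts ran from 4071084 in 3′F resting replicate 3 to 19818043. That shallow library and KO resting replicate 3 stood apart from their groups for several receptors, and some results that rest on either are also given without it. All 7 macrophage markers were counted in every group. Markers of T and NK, B and mast cells, and dendritic cells, each summed to at most 4.45 CPM in any library, and the neutrophil gene Ly6g had at most 2 counts in a group. Libraries of a group differed by more than sampling noise in all 18 pairs compared.

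LPS raised most of these receptors in WT cells. 9 of the 10 passed the test and all 9 rose, where 28.5% of all tested genes passed and 16.3% rose. Here and below a gene is called at an adjusted p under 0.05 from edgeR's quasi-likelihood test with Benjamini-Hochberg adjustment over the 11357 genes. The median log2 change of the 10 receptors was 1.26, against 0.016 for all genes. All 9 stayed called in every alternative processing and without any single library.

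**Figure D1:**
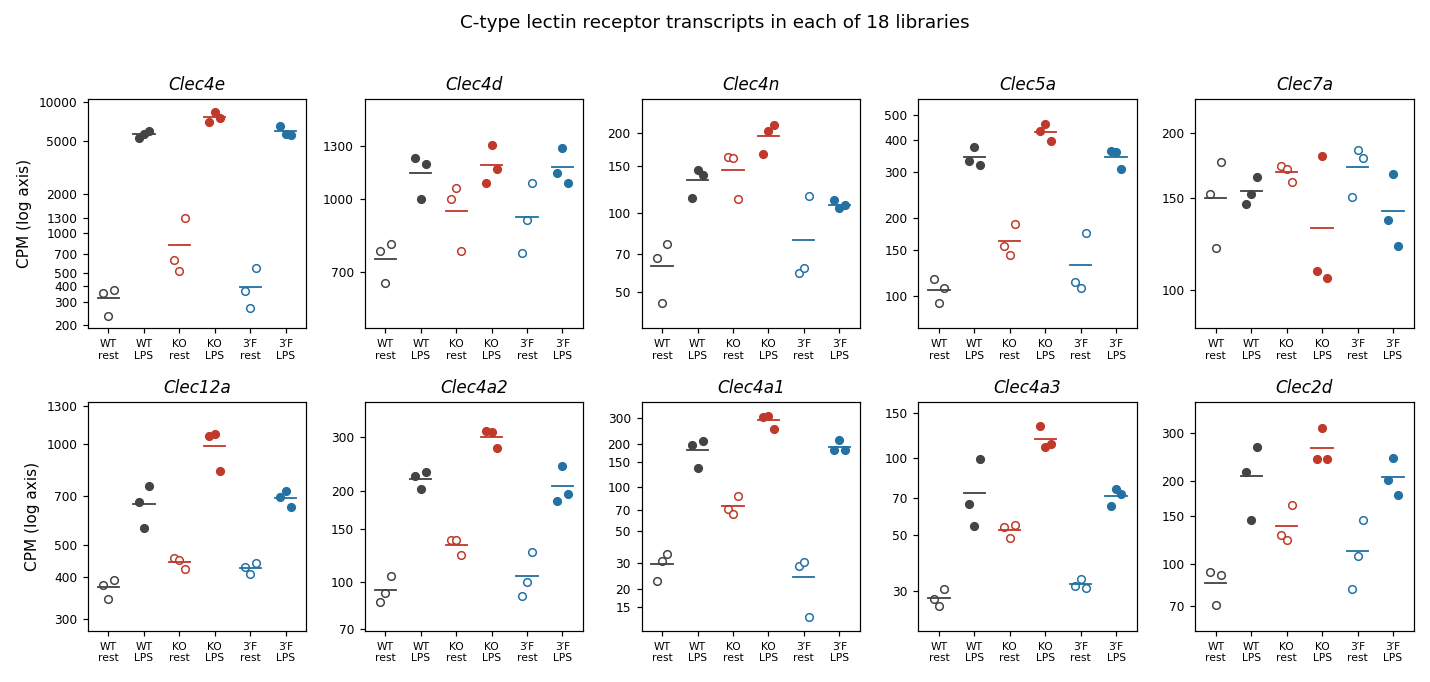
Level of each receptor in all 18 libraries, as CPM on a log axis whose range differs between panels. Each point is 1 library (open, resting; filled, LPS; grey WT, red KO, blue 3′F) and each line the mean of 3. Clec4e moves from 237 to 373 CPM in resting WT to between 5323 and 6025 with LPS, while the Clec7a groups overlap.

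Among the activating receptors, Clec4e changed most. Mincle binds the mycobacterial glycolipid cord factor and a nuclear protein released by dying cells. Resting WT libraries held 352, 237 and 373 CPM of Clec4e, and the WT libraries with LPS held 5323, 5648 and 6025. The groups are far apart, and the rise was 17.7-fold (log2 4.14 ± 0.33, SE; adjusted p = 2.95e-07). KO cells went from 633, 521 and 1308 CPM to 6980, 8379 and 7576, and 3′F cells from 363, 270.0 and 543 to 6580, 5716 and 5562. Clec4e thus passed from rank 322 to 592 among all genes by count in resting WT libraries to rank 8 to 12 in WT and 3′F libraries with LPS, and to rank 6 in each KO library with LPS. Library by library under the same number, the rise was 15.1-, 23.8- and 16.1-fold in WT, 11.02-, 16.1- and 5.79-fold in KO, and 18.1-, 21.2- and 10.2-fold in 3′F. The lowest of these 9 ratios is that of KO replicate 3. Clec4e made up 62.5% to 68.1% of the summed CPM of the 10 receptors in LPS libraries. In resting libraries it made up 12.2% to 21.3%, except in KO resting replicate 3, where it made up 38.4%.

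Clec4d, which pairs with Mincle at the cell surface, was the opposite case, high before LPS and little changed by it. WT libraries rose from 775, 662 and 803 CPM to 1222, 1003 and 1188, a 1.52-fold change (log2 0.61 ± 0.15; adjusted p = 0.00655). The log2 change was 0.32 ± 0.15 in KO (adjusted p = 0.124) and 0.35 ± 0.15 in 3′F (adjusted p = 0.0849), neither past the threshold. In each genotype the LPS libraries lay above the resting ones. Without 3′F resting replicate 3, which held 1081 CPM beside 768 and 901 in the others, the 3′F change of Clec4d was called (log2 0.45, adjusted p = 0.0402).

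Clec4n, the receptor of fungal mannans, rose in WT. WT cells went from 67.1, 45.6 and 76.0 CPM to 114, 145 and 139, without overlap (2.11-fold; log2 1.08 ± 0.24; adjusted p = 0.00279). KO cells started from 163, 161 and 113 CPM and reached 166, 204 and 215 (log2 0.42 ± 0.23; adjusted p = 0.196). 3′F cells started from 59.3, 61.9 and 115 CPM and reached 112, 104 and 107 (log2 0.46 ± 0.23; adjusted p = 0.144). The high resting 3′F value is that of replicate 3, and without it the 3′F change of Clec4n was called (log2 0.78, adjusted p = 0.011).

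Clec5a, a receptor on monocytes and macrophages that is known for binding dengue virus, rose in all genotypes. Its range moved from 93.4 to 116 CPM in resting WT to between 320 and 374 with LPS, a 3.24-fold rise (log2 1.70 ± 0.17; adjusted p = 2.64e-06). The rise was 2.63-fold in KO and 2.63-fold in 3′F. Resting 3′F replicate 3 was again the highest of its group, at 175 CPM beside 107 and 113.

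Clec7a, the β-glucan receptor, did not follow the others. WT libraries held 153, 120 and 176 CPM at rest and 146.2, 153 and 165 with LPS. KO libraries held 173, 170 and 161 CPM at rest and 109, 181 and 105 with LPS, and 3′F libraries ran from 151 to 186 at rest and from 122 to 167 with LPS. Resting and LPS libraries overlapped in every genotype. The log2 change was 0.04 ± 0.19 in WT (95% interval −0.35 to 0.44), −0.35 ± 0.19 in KO (−0.75 to 0.04) and −0.28 ± 0.19 in 3′F (−0.68 to 0.12). Clec7a is the one receptor whose LPS response did not pass the test in any genotype (lowest adjusted p = 0.179). In KO the high value is that of replicate 2, and without this library the fall of Clec7a with LPS was called (log2 −0.70, adjusted p = 0.00656), as it was with limma-voom (log2 −0.53, adjusted p = 0.00967).

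Both inhibitory receptors rose. Clec12a, which recognises uric acid crystals, went from 380.4, 346 and 394 CPM to 671, 560 and 750.3 in WT (1.77-fold; log2 0.82 ± 0.12; adjusted p = 0.000125). It went from 456, 450.5 and 425 to 1056, 1070 and 833 in KO (2.22-fold; log2 1.15 ± 0.12; adjusted p = 4.06e-06). In 3′F it went from 430, 409 and 440 to 694, 725 and 650.4 (1.62-fold; log2 0.69 ± 0.12; adjusted p = 0.000493). Clec12a is the one receptor whose fitted LPS response was larger in KO than in WT, although that difference was not called (log2 0.33 ± 0.17, unadjusted p = 0.071, adjusted p = 1.00). Clec4a2 rose 2.32-fold in WT, from a range of 86.3 to 104 CPM to a range of 203 to 230.2, and 2.27-fold in KO and 1.97-fold in 3′F.

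Clec4a1 and Clec4a3, close relatives of DCIR that lie next to each other, had the lowest levels per kb of exon in resting WT cells. Clec4a1 rose 6.08-fold in WT, from 22.7, 31.3 and 35.0 CPM to 196, 136 and 208 (log2 2.61 ± 0.26; adjusted p = 2.27e-06). It was the second largest rise after Clec4e in each genotype, at 3.86-fold in KO and 7.63-fold in 3′F. The 3′F value includes resting replicate 3, which held 12.9 CPM (55 counts) beside 28.9 and 30.8. Library by library under the same number, the 3′F rise of Clec4a1 was 6.21-, 6.85- and 13.98-fold. Clec4a3 rose 2.58-fold in WT, from 28.0, 26.2 and 30.7 CPM to 66.2, 54.1 and 99.1 (log2 1.37 ± 0.17; adjusted p = 1.92e-05), and 2.28-fold in KO and 2.21-fold in 3′F.

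Clec2d is a ligand rather than a pathogen sensor and engages an inhibitory NKR-P1 receptor on natural killer cells. It rose 2.47-fold in WT, from 93.3, 70.9 and 90.9 CPM to 216, 145 and 268 (log2 1.30 ± 0.23; adjusted p = 0.000573). The rise was 1.93-fold in KO and 1.89-fold in 3′F.

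In KO cells 7 of the 10 receptors were called with LPS, all higher, where 26.9% of all genes were called and 14.3% rose. The same count held in 3′F, where 31.2% of genes were called and 17.2% rose. The 3 receptors not called in either genotype were Clec4d, Clec4n and Clec7a. The median log2 change was 1.17 in KO and 0.95 in 3′F. The direct test of whether the response to LPS differed from that of WT called no receptor in either genotype with edgeR, DESeq2 or limma-voom. At an unadjusted p under 0.05, 1 receptor differed between KO and WT and 0 between 3′F and WT, where 4.93% and 1.79% of all genes did. That receptor was Clec4e, whose log2 rise was smaller in KO by 0.92 ± 0.41 (95% interval of KO minus WT −1.80 to −0.05; unadjusted p = 0.0405, adjusted p = 0.966). Without KO resting replicate 3 the difference was −0.42 (adjusted p = 1.00). Over all genes the difference was called for 0.00881% of genes in KO and 0% in 3′F.

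**Figure D2:**
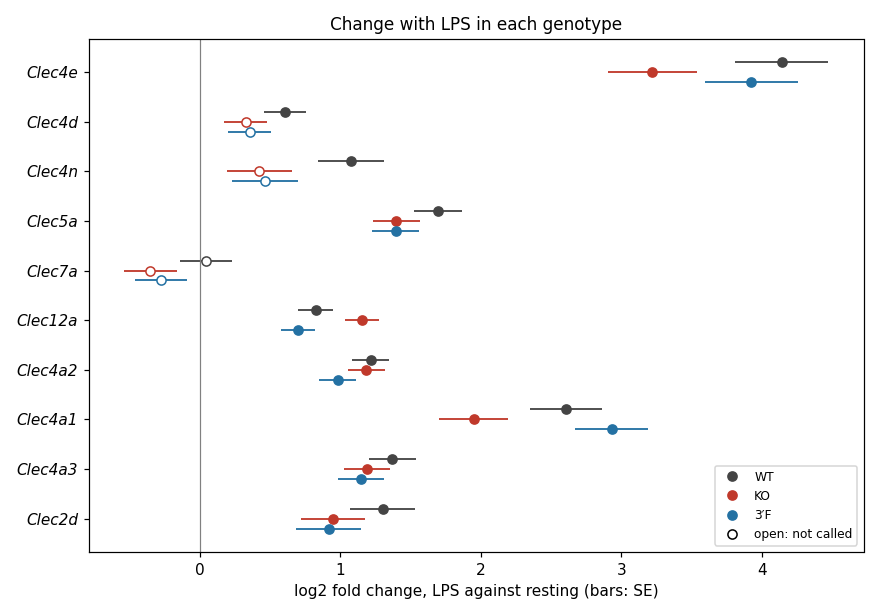
Log2 change with LPS for each receptor in WT, KO and 3′F, with bars of 1 SE. Filled points were called and open points were not; Clec4e lies at 4.14, 3.22 and 3.93 in WT, KO and 3′F, and the Clec7a points lie at 0.04, −0.35 and −0.28.

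Levels of different genes can be compared only per length, so CPM was divided by exon length in kb. In resting WT cells Clec4d led with 565 ± 56.5 CPM per kb (SD, n = 3), followed by Clec12a with 136 ± 9.09 and Clec4e with 127 ± 29.0, whose libraries overlapped. Clec2d, Clec7a and Clec4n came next, each overlapping its neighbour, at 70.1 ± 10.2, 65.8 ± 12.4 and 50.6 ± 12.6. Clec4a2, Clec5a, Clec4a3 and Clec4a1 followed, from 32.3 ± 3.15 down to 19.0 ± 4.07, with overlap between Clec4a2 and Clec5a and between Clec4a3 and Clec4a1. With LPS, Clec4e led in WT with 2250 ± 140 CPM per kb and stood clear of Clec4d with 860.0 ± 89.1, and Clec12a came next with 240.2 ± 34.9. Clec4d led in all 3 resting groups and Clec4e in all 3 LPS groups, both without overlap with the next receptor.

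**Figure D3:**
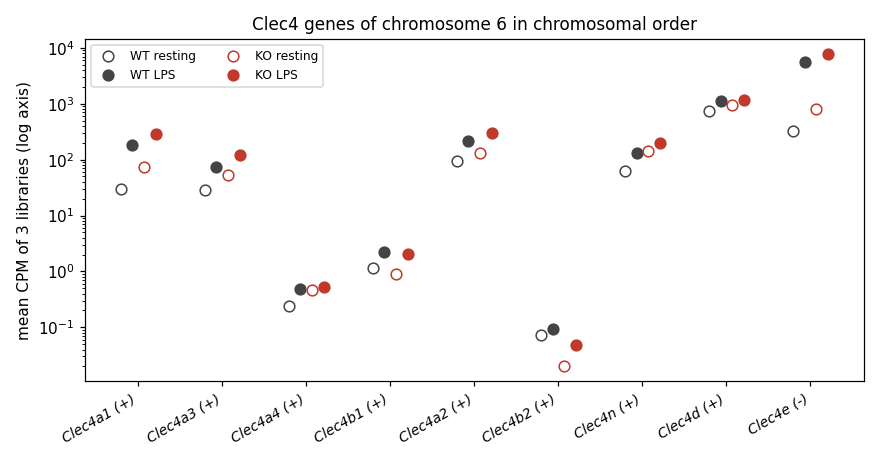
Mean CPM over 3 libraries (log axis) of the 9 Clec4 genes in their order along chromosome 6, with the strand in brackets, for WT (grey) and KO (red), resting (open) and LPS (filled). Clec4a4, Clec4b1 and Clec4b2 stay at or below 2.27 CPM while Clec4e, at the end of the stretch, reaches 5665 CPM in WT and 7645 in KO with LPS.

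The genotypes were then compared in each state. In resting cells 6 of the 10 receptors were higher in KO than in WT, Clec4e, Clec4a1, Clec4n, Clec4a3, Clec5a and Clec4a2, and none was lower. Over all genes 9.40% were called and 5.12% were higher. The median log2 difference of the receptors was 0.66, against 0.017 for all genes, and all 10 fitted differences were above 0. For 8 receptors the KO libraries lay wholly above the WT libraries, as they did for 13.7% of all tested genes.

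The 3 steadiest calls were Clec4a1, Clec4n and Clec4a3. KO resting libraries held 71.2, 65.5 and 87.7 CPM of Clec4a1, all above the highest WT library at 35.0, and the gene was 2.52-fold higher (log2 1.34 ± 0.25; adjusted p = 0.00423). Clec4n was 2.31-fold higher (log2 1.21 ± 0.24; adjusted p = 0.00545), with 113 CPM in the lowest KO library and 76.0 in the highest WT library. Clec4a3 held 53.8, 48.6 and 54.5 CPM in KO and was 1.85-fold higher (log2 0.89 ± 0.17; adjusted p = 0.00423). These 3 stayed called under every alternative and without any single library.

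Clec4e was 2.56-fold higher in resting KO cells (log2 1.35 ± 0.30; adjusted p = 0.0101), with no overlap between the groups. The call was lost without WT resting replicate 2, the lowest WT library (log2 1.18, adjusted p = 0.0596), and when only the libraries compared were fitted (adjusted p = 0.0978). KO resting replicate 3 was the highest KO library, and without it the difference was 0.85 (adjusted p = 0.0385). Clec5a was 1.54-fold higher (log2 0.63 ± 0.17; adjusted p = 0.0263) and Clec4a2 1.41-fold higher (log2 0.49 ± 0.13; adjusted p = 0.0268). Both were lost in several fits that left out 1 library. For Clec5a 1 of these was the fit without KO resting replicate 3, its highest KO library (log2 0.50, adjusted p = 0.0896). In all, 3 receptors were called without WT resting replicate 2, where 3.53% of all genes were called. Without any of the other 5 libraries in turn, KO resting replicate 3 included, 5 receptors were called. Those fits called 5.2% to 9.22% of all genes.

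Of the 4 receptors not called, Clec2d was higher by 0.70 ± 0.23 on the log2 scale (adjusted p = 0.0687) and was called with DESeq2 (adjusted p = 0.0295). Clec4d differed by 0.34 ± 0.15, Clec12a by 0.25 ± 0.12 and Clec7a by 0.17 ± 0.19. Their intervals reach up to 0.66, 0.51 and 0.56.

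**Figure D4:**
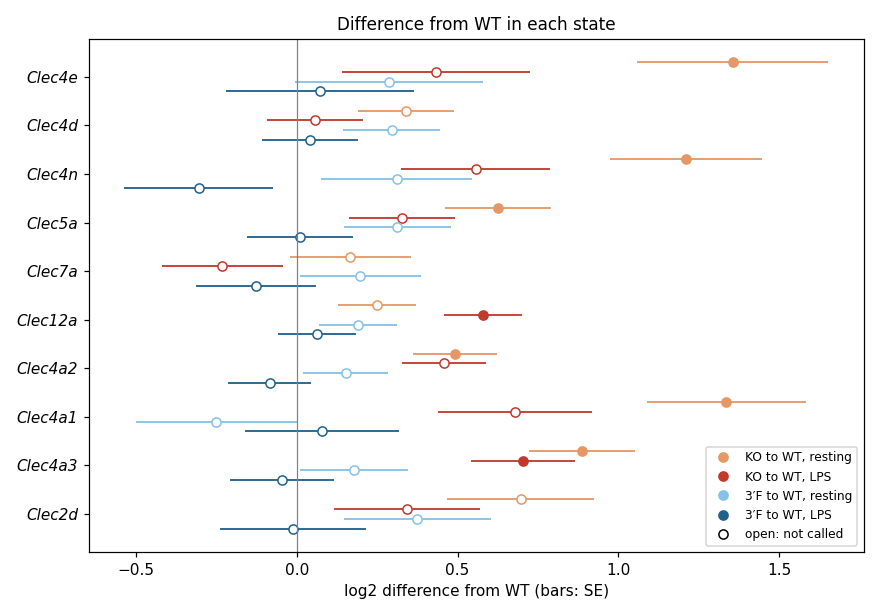
Log2 difference of KO and 3′F from WT for each receptor, resting and with LPS, with bars of 1 SE. Filled points were called; the KO resting points of Clec4e, Clec4n and Clec4a1 lie above 1.2, and no 3′F point is filled.

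With LPS, 2 receptors were higher in KO than in WT, Clec12a and Clec4a3, and none was lower, where 4.79% of all genes were called and 1.89% were higher. Clec12a held 833 CPM in the lowest KO library and 750.3 in the highest WT library and was 1.49-fold higher (log2 0.58 ± 0.12; adjusted p = 0.012). Clec4a3 held 133, 111 and 114 CPM in KO, all above the WT libraries, and was 1.63-fold higher (log2 0.70 ± 0.16; adjusted p = 0.0207). Both calls were lost without WT LPS replicate 2, without KO LPS replicate 1 or without KO LPS replicate 2, each of which left 0 receptors called and 1.63% to 2.21% of all genes. Without WT LPS replicate 1, 1 receptor was called and 3.30% of all genes. Limma-voom called 6 receptors and 15.6% of all genes.

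Other receptors leaned the same way with LPS without being called. Clec4a1 was higher in KO by 0.68 ± 0.24 (adjusted p = 0.119), Clec4n by 0.56 ± 0.23 (adjusted p = 0.207) and Clec4a2 by 0.46 ± 0.13 (adjusted p = 0.0554). Clec4e differed by 0.43 ± 0.29 (adjusted p = 0.5), although each KO library lay above each WT library. Clec4d differed by 0.06 ± 0.15, with a 95% interval from −0.26 to 0.38. Clec7a was the one receptor with a fitted value below 0, at −0.23 ± 0.19 (−0.63 to 0.17). The median log2 difference was 0.44, against 0.014 for all genes.

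No receptor was called between 3′F and WT cells. Resting, 0 of 10 were called with edgeR, DESeq2 or limma-voom, where edgeR called 0% of all genes. At an unadjusted p under 0.05 with edgeR there were 0 receptors, where 4.90% of all genes passed. With LPS the counts were again 0 and 0, where edgeR called 0.00881% of all genes and 0.933% had an unadjusted p under 0.05. At rest the 3′F libraries lay wholly above the WT libraries for 2 receptors, Clec12a and Clec4a3, as they did for 3.28% of all tested genes. With LPS they lay wholly below for 1 receptor, Clec4n, as they did for 3.89%. The 95% intervals of the differences ran from −0.78 to 0.91 over the 10 receptors at rest and from −0.80 to 0.69 with LPS. Resting, 9 of 10 fitted values were above 0 with a median of 0.24, and with LPS 5 of 10 were, with a median of −0.0003. For Clec4e and Clec4n the small resting excess in 3′F rested on replicate 3, and without it the log2 differences from WT were −0.02 and −0.05.

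KO could also be set against 3′F directly. Resting, Clec4a1, Clec4e, Clec4n and Clec4a3 were higher in KO, 4 of 10 where 12.9% of genes were called and 6.79% were higher. The largest of these was Clec4a1, 3.00-fold (log2 1.59 ± 0.25; adjusted p = 0.00218). Clec4e was higher (log2 1.07 ± 0.30; adjusted p = 0.0284) with overlapping libraries, and without KO resting replicate 3 the difference was 0.56 (adjusted p = 0.131). Clec4n was 1.87-fold higher (adjusted p = 0.0223), also with overlapping libraries, and Clec4a3 1.63-fold higher (adjusted p = 0.0138). The Clec4n call was lost without replicate 1 or replicate 2 of resting KO or of resting 3′F (adjusted p = 0.0528 to 0.0674). The count was 2 without 3′F resting replicate 1 or without 3′F resting replicate 2, where 16% and 12.3% of all genes were called. It was 6 without the shallow 3′F resting replicate 3, where 6.47% of all genes were called. It was 0 when only the libraries compared were fitted, a fit that called 0.0881% of all genes.

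With LPS, Clec12a, Clec4a2 and Clec4a3 were higher in KO than in 3′F, where 3.88% of all genes were called and 1.51% were higher. Clec12a was 1.43-fold higher (log2 0.52 ± 0.12; adjusted p = 0.0265), Clec4a2 1.46-fold (0.54 ± 0.13; adjusted p = 0.029) and Clec4a3 1.68-fold (0.75 ± 0.16; adjusted p = 0.0173). Clec4n was 1.82-fold higher and just missed the threshold (adjusted p = 0.0502). The count fell to 0 without KO LPS replicate 1, without 3′F LPS replicate 1 or without 3′F LPS replicate 3. Those fits called 1.36% to 1.65% of all genes. The count was 1 without KO LPS replicate 2, where 142 of all 11357 genes were called. The comparisons of KO with WT and with 3′F share the KO libraries.

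Markers of less mature cells differed between the same groups. The summed level of 4 genes listed as monocyte markers, among them Ly6c2, Ccr2 and Cd177, which is better known as a neutrophil antigen, was 22.5 to 25.0 CPM in resting WT and 41.7 to 67.5 in resting KO, and 32.7 to 69.9 in WT and 88.8 to 137 in KO with LPS. Ly6c2 (log2 3.10 ± 0.74; adjusted p = 0.0155) and Cd177 (log2 2.39 ± 0.56; adjusted p = 0.0135) were called higher in resting KO. 10 neutrophil and precursor markers summed to 15.4 to 23.7 CPM in resting WT and 15.8 to 53.6 in resting KO, mostly S100a8 and S100a9, with Ly6g and Elane at 0 counts in resting KO. The 7 macrophage markers, which include the abundant Lyz2, summed to 31119 to 47144 CPM in resting WT and to 59490 to 61539 in resting KO. Most of that sum is Lyz2 alone, at 26461 to 42604 and 53039 to 55434 CPM. Itgam of the same list was lower in KO at rest (log2 −0.71 ± 0.15; adjusted p = 0.0082) and with LPS (log2 −0.59 ± 0.15; adjusted p = 0.0315). The resting differences of Adgre1 and Cd68 were 0.04 ± 0.18 and −0.11 ± 0.18, neither called. Other values of the list lay higher in KO. Mertk held 62.3 to 69.6 CPM in resting WT and 80.4 to 98.7 in resting KO. With LPS, Adgre1 held 3235 to 4065 CPM in WT and 4291 to 4895 in KO. The part of these differences in the receptor results was not tested. In bulk RNA, fewer cells of a type and less RNA per cell cannot be told apart.

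The genes that act downstream of these receptors were examined as a list of 21, all tested. With LPS in WT 14 were called, 12 higher and 2 lower, against 28.5% of all genes called. The kinase gene Src rose most, 9.02-fold (log2 3.17 ± 0.32), while the ubiquitin ligase gene Cblb fell by 0.78 and the exchange factor gene Vav3 by 0.66 on the log2 scale. The median log2 change of the list was 0.44. In KO 14 of the list were called, 13 of them higher, and in 3′F 15 were, 14 of them higher, against 26.9% and 31.2% of all genes. Syk and Malt1 rose 1.94-fold and 4.14-fold in WT. The FcRγ gene Fcer1g, which the Mincle group needs, missed the threshold in WT (log2 0.63 ± 0.24, adjusted p = 0.0598).

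In resting KO cells 5 of these 21 genes were higher than in WT and none lower, where 9.40% of all genes were called. Fgr, Lyn and Prkcd were among them. The Prkcd call was lost whichever single library of the compared groups was left out (adjusted p = 0.0509 to 0.144). The Lyn call was lost without any 1 of the WT libraries or without KO resting replicate 3 (adjusted p = 0.0607 to 0.155). Fgr held 29.5, 30.4 and 59.1 CPM in KO and 11.4, 9.04 and 19.6 in WT (2.97-fold; log2 1.57 ± 0.27; adjusted p = 0.003). KO resting replicate 3 was the highest for Fgr, and without it Fgr was higher by 1.18 ± 0.23 (adjusted p = 0.00732). Without that library 3 genes of the list and 7.18% of all genes were called. The count was 1 without WT resting replicate 2, 2 without WT resting replicate 3, and 3 without KO resting replicate 2. These fits called 3.53%, 6.32% and 9.22% of all genes. With LPS 0 of the 21 were called between KO and WT with edgeR, 2 with DESeq2 and 7 with limma-voom, where these tools called 4.79%, 8.66% and 15.6% of all genes. At an unadjusted p under 0.05 with edgeR there were 6 of the 21, and 2041 of all 11357. Between 3′F and WT, 0 were called at rest and with LPS with edgeR, where 0% and 0.00881% of all genes were. At an unadjusted p under 0.05 there were 1 at rest and 0 with LPS, where 4.90% and 0.933% of all genes passed.

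48 other C-type lectin genes were listed, of which 20 were expressed enough to test. With LPS in WT 11 of the 20 were called, 7 higher and 4 lower, against 28.5% of all genes called. Cd69, an early activation antigen, rose from 0.46, 0.828 and 1.74 CPM to 27.0, 15.5 and 93.5 (log2 5.57 ± 0.89; adjusted p = 0.000243). Klrk1, which encodes NKG2D, had 1 count over the resting WT libraries and 40 over those with LPS. Clec1a fell by 2.34 ± 0.65 on the log2 scale, but had only 12, 15 and 7 counts in resting WT libraries and 2, 1 and 4 with LPS. Clec10a, a galactose-type lectin of alternatively activated macrophages, fell by 1.29 ± 0.26 on the log2 scale. In KO 10 of the 20 were called with LPS, 6 of them higher, and in 3′F 9 were, 6 of them higher, against 26.9% and 31.2% of all genes. In resting KO cells Cd69, Olr1 and Cd302 were higher than in WT and none was lower, 3 of 20 where 9.40% of all genes were called. Cd69 held 4.88, 3.59 and 30.2 CPM in KO (log2 3.69 ± 0.91; adjusted p = 0.0181), with replicate 3 far above the others. Without that library the difference of Cd69 was 2.17 ± 0.80 and was not called (adjusted p = 0.117), and the call was also lost without WT resting replicate 1 (adjusted p = 0.0855) or WT resting replicate 2 (adjusted p = 0.0782). Olr1, the receptor of oxidised LDL, held 5.75, 5.96 and 6.40 (log2 1.93 ± 0.36; adjusted p = 0.00442). The count of 3 became 1 without WT resting replicate 2, where 3.53% of all genes were called. With LPS 0 were called between KO and WT with edgeR, 1 with DESeq2 and 6 with limma-voom, where these tools called 4.79%, 8.66% and 15.6% of all genes. At an unadjusted p under 0.05 there were 6 of the 20, and 2041 of all 11357. Between 3′F and WT 0 were called at rest and with LPS with edgeR, where 0% and 0.00881% of all genes were. In both states 0 had an unadjusted p under 0.05, where 4.90% and 0.933% of all genes did.

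Across the 18 libraries 9 of the receptors varied together, with Pearson's r in log2 CPM between 0.68 and 0.99 over their 36 pairs. The highest value was that of Clec4e with Clec5a, although Clec5a lies far from the others. Clec7a stood outside, with r between −0.39 and 0.02 in its 9 pairs. The libraries share the LPS contrast, and no test was made. For each receptor the gene most like it was also named. Sod2, the mitochondrial superoxide dismutase, was nearest to Clec4e (r = 0.996), Ptprj to Clec4a1 (0.996), the lectin gene Cd302 to Clec5a (0.988) and Sdc4 to Clec12a (0.983). Tmem176a was nearest to Clec4a2 (0.979), Capza2 to Clec2d (0.976) and Map3k8, the kinase TPL2, to Clec4a3 (0.972). Arl5c was nearest to Clec4n (0.936), Manbal to Clec4d (0.919) and Nck2 to Clec7a (0.760).

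The 250 bases before the start were available for 9 of the 10 receptors (RefSeq, GRCm38.p6) and were searched on both strands for the letters of 5 motifs. For Clec12a (129349994 to 129350243) and Clec4a2 (123122440 to 123122689) the stretch lies inside the gene as placed by Gencode M21. There these genes start at 129342691 and 123106428. TTNNGNAA, as bound by C/EBP factors, was present in 6 of the 9, Clec4d, Clec4e, Clec5a, Clec12a, Clec2d and Clec4a2, and in 36.9% of 32851 promoters. GAGGAAG, as bound by PU.1, was present in 4, Clec4d, Clec5a, Clec12a and Clec4a1, and in 10.6% of promoters. The AP-1 letters TGANTCA occurred in Clec12a alone (6.75% of promoters), the IRF letters GAAANNGAA in Clec2d alone (7.13%), and the NF-κB motif in none of the 9 (3.90%). Such matches describe letters and not bound sites. The promoters of Clec4e and Clec4d, neighbours with the largest and nearly the smallest response, and that of Clec7a, which did not pass the test, are shown with C/EBP and PU.1 letters in capitals. They lie on chromosome 6 at 123289872 to 123290121 on the minus strand for Clec4e, at 123261857 to 123262106 on the plus strand for Clec4d, and at 129472780 to 129473029 on the minus strand for Clec7a.
Clec4e promoter: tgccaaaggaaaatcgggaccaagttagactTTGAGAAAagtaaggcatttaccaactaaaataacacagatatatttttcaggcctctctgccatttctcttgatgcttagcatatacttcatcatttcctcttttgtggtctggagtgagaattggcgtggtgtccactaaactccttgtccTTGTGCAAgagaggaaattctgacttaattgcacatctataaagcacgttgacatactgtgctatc
Clec4d promoter: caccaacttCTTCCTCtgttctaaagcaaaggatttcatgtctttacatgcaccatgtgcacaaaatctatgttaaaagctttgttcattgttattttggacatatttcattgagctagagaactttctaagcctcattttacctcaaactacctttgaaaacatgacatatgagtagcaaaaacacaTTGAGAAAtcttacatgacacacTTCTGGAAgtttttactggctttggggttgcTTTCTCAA
Clec7a promoter: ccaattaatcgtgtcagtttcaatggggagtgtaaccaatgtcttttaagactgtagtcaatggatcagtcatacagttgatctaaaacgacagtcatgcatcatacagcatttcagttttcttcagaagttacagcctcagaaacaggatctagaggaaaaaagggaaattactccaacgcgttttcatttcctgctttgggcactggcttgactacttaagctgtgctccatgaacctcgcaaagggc

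The Clec4e stretch holds the letters TTGTGCAA 66 bases before the start, and the Clec4d stretch holds 3 C/EBP matches within its last 62 bases. The Clec7a stretch holds none of the 5 motifs.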

How the data were processed

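RNA was measured in 18 libraries, 3 per genotype and state. The authors trimmed reads with cutadapt (1.8.3), removed ribosomal reads, aligned them with HISAT2 (2.1.0) to mm10 and counted them by strand with featureCounts (1.5.3, mapping quality of at least 50, Gencode M15). They deposited raw counts per protein-coding gene, not normalized. Positions came from Gencode M21, which holds 21679 of the table's gene IDs and lacks 55. Exon lengths were those given by the authors with the counts. The members, the gene lists and the tests were chosen with earlier results of these data known.

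Counts were scaled by TMM and filtered by filterByExpr, and 11357 of 21734 genes were fitted over all 18 libraries with edgeR's quasi-likelihood test (edgeR 4.0.16, limma 3.58.1, R 4.3.3), 1 coefficient for each of 6 groups, in 11 comparisons. Each comparison had its own Benjamini-Hochberg adjustment over the tested genes, with calls at an adjusted p under 0.05. SE is the log2 change divided by the root of F. The fit was tested on simulated data. All 10 members were named, with the 1 other tested gene of highest Pearson's r for each. From the lists of signalling genes and other lectins, up to 2 called genes with the largest rise and 2 with the largest fall were named for the LPS response in WT and for KO against WT in each state. Syk, Malt1, Fcer1g, Lyn, Prkcd and Cd302 were added for their role, or to complete a count of 5 or fewer, after their values were seen. Some listed genes are counted but not reported here by name.

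Alternatives were RLE scaling, no filter, DESeq2 (1.42.0), limma-voom with quality weights, a fit of the compared groups alone, a replicate block, and leaving out each library. Libraries of a genotype with the same number were taken as 1 mouse, as the column letters and the plating of 3 mice per genotype imply. Deviations of the same-numbered resting and LPS libraries correlated at 0.03 to 0.32. Between genotypes the number is shared by name only.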

Additional observations from a re-analysis of the deposited data

How the results depend on the processing

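For the 10 receptors, the LPS calls in WT, KO and 3′F were kept in every alternative run, and the genotype calls were less steady. With the compared groups fitted alone, 3 receptors were called between KO and WT at rest and 4 with LPS, and 0 and 6 between KO and 3′F, where this fit called 3.35%, 9.16%, 0.0881% and 14.7% of all genes. Limma-voom called 6 between KO and WT and 6 between KO and 3′F with LPS, and 15.6% and 16.2% of all genes. Leaving out 1 library gave 3 to 5 receptors for KO against WT at rest, 0 to 2 with LPS, 2 to 6 for KO against 3′F at rest and 0 to 3 with LPS. Of the 21 signalling genes, the 5 called between KO and WT at rest became 3 with no filter, 8 with limma-voom, 0 with the compared groups alone and 2 with the replicate block, against 4.95%, 19.9%, 3.35% and 8.48% of all genes. Without 1 library they became 1 to 4, against 3.53% to 9.22% of all genes. With LPS the count of 0 became 2 with DESeq2, 7 with limma-voom and 2 with the compared groups alone, against 8.66%, 15.6% and 9.16% of all genes. Of the other lectins, the 3 called at rest became 1 with the compared groups alone, against 3.35% of all genes. Without 1 library they became 1 to 4, against 3.53% to 9.22%. With LPS the 0 became 1, 6 and 4 with DESeq2, limma-voom and the compared groups alone, against 8.66%, 15.6% and 9.16%. The replicate block changed no call of the 10 receptors. The cause of these changes was not tested.

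Fitted differences near 0, none of them called, changed sign. With limma-voom this was so on the log2 scale for Clec4d with LPS (KO minus WT −0.020, 3′F minus WT −0.0056, KO minus 3′F −0.015), for resting Clec4e and Clec4a2 (3′F minus WT −0.026 and −0.011) and for the response of Clec4e (3′F minus WT 0.14). With the compared groups alone Clec4d with LPS stood at −0.012 (KO minus 3′F), with no filter resting Clec7a at 0.015 (KO minus 3′F), and with the replicate block Clec2d with LPS at 0.017 (3′F minus WT). Leaving out 1 library at a time gave ranges that crossed 0. For KO minus WT with LPS the values ran from −0.026 to 0.12 for Clec4d. For 3′F minus WT with LPS the values ran from −0.042 to 0.096 for Clec4d, −0.0067 to 0.12 for Clec4e, −0.035 to 0.081 for Clec5a, −0.043 to 0.17 for Clec12a, −0.22 to 0.21 for Clec2d, −0.088 to 0.20 for Clec4a1 and −0.22 to 0.24 for Clec4a3. For KO minus 3′F at rest the values ran from −0.067 to 0.19 for Clec4d and −0.12 to 0.031 for Clec7a. For KO minus 3′F with LPS the values ran from −0.062 to 0.090 for Clec4d and −0.40 to 0.032 for Clec7a. For 3′F minus WT at rest the values ran from −0.020 to 0.50 for Clec4e, −0.053 to 0.48 for Clec4n and −0.45 to 0.011 for Clec4a1. For the LPS response of 3′F minus that of WT the values ran from −0.42 to 0.086 for Clec4e and −0.40 to 0.059 for Clec4a3. For the LPS change in WT the values ran from −0.092 to 0.18 for Clec7a. For the LPS response of KO minus that of WT the values ran from −0.11 to 0.026 for Clec4a2 and −0.36 to 0.099 for Clec4a3.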
